A study of Bubalus bubalis with 36 samples.

Results

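The fatty acid desaturases and elongases are described here as 10 genes, SCD, SCD5, FADS1, FADS2 and FADS3 among the desaturases and ELOVL1, ELOVL3, ELOVL5, ELOVL6 and ELOVL7 among the elongases. They were taken by gene symbol from 23032 gene models, and a symbol shared by several gene models was read from the model whose average over the 36 libraries was highest. Adipose tissue was collected from 6 river buffaloes, and RNA of 6 depots of each animal was sequenced. The subcutaneous adipose tissues (SATs) were those of the back (BSAT), the sternum (SSAT) and the groin (IAT), and the visceral ones (VATs) came from the omentum (OAT), the pericardium (PCAT) and the region around the kidney (PRAT), with 6 libraries per depot. Animals 1 to 3 were Murrah males and animals 4 to 6 were Nili-Ravi females, so sex and breed cannot be told apart. All animals were 19 to 21 months old by the labels, had been fattened before slaughter, and the labels name no treatment. Libraries with the same number came from the same animal. Each library is bulk tissue, in which fewer cells of a type and less RNA per cell cannot be told apart.

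Mammalian fat cells make palmitate from acetyl units or take up fatty acids from the blood, and desaturases and elongases then remodel the chains on the membrane of the endoplasmic reticulum. Stearoyl-CoA desaturases place a double bond in saturated chains and so make oleate and palmitoleate, whereas the FADS enzymes work mostly on chains that are already unsaturated or on sphingoid bases. Elongases of the ELOVL family carry out the condensation step that lengthens a chain, and the other steps of that cycle are shared between them. In ruminants, microbes of the rumen hydrogenate much of the dietary fat, and SCD is the best known source of monounsaturated fatty acids in the adipose tissue. The study also measured the fatty acid composition of these depots, which is not analysed here.

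The levels of the genes are given in FPKM, a read density per gene length and library size, so that levels can be set beside each other between genes. SCD was the most abundant by a wide margin, with a mean of 1552 FPKM over the 36 libraries, above 99.75% of the gene models tested. Its levels spanned 109 FPKM in OAT 4 to 7795 FPKM in SSAT 6. SCD made up 25.4% to 97.2% of the summed FPKM of the 10 genes in a library, with a median of 83.5%. FADS3, ELOVL1, ELOVL6, FADS1 and ELOVL5 followed with means of 72.8, 71.5, 47.9, 32.4 and 18.9 FPKM. FADS2 averaged 5.72 FPKM, and SCD5 and ELOVL7 averaged 1.47 and 1.31 FPKM. ELOVL3, an elongase known from the brown fat of mice, was listed at 0 in 29 of the 36 libraries and reached 0.326 FPKM in BSAT 2. Its mean of 0.0428 FPKM was under the limit of 0.1 set for testing, so 9 of the 10 genes were tested. The values of each gene were its own, since no other row of the table held equal values.

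The genes lie on several chromosomes of the authors' assembly, whose coordinates are not used here. FADS3, FADS2 and FADS1 are gene models 370, 371 and 374 of chromosome 5 and are direct neighbours in the RefSeq annotation, with 0 protein-coding genes between them. SCD and ELOVL3 are both on chromosome 23 with 31 protein-coding genes between them in RefSeq, and SCD5 and ELOVL6 are both on chromosome 8 of the authors' assembly. A second FADS2 gene model on chromosome 14 was listed at 0 in 22 libraries and did not exceed 0.0865 FPKM. The sources used here do not say how reads fitting more than 1 of the related FADS genes were assigned.

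Some libraries stood apart before any comparison was made. The defining markers of adipocytes were present in all libraries, but their summed level ranged from 432 FPKM in PRAT 4 to 15190 FPKM in PRAT 1. In 6 libraries, OAT 1, OAT 4, PRAT 2, PRAT 4, IAT 4 and PCAT 2, the summed level of 6 measured B cell and plasma cell markers was 313 to 2748 FPKM against 8.22 to 139 FPKM in the other 30. These are called lymphoid-rich below, and 5 of them are VAT libraries. PCAT 4 had the lowest adipocyte level of the remaining 30, 897 FPKM, and the highest summed level of mesothelial markers, 2374 FPKM. Of 9 tested fibroblast and progenitor markers, 9 were higher in SATs with all libraries and without the lymphoid-rich ones. Of all gene models 7.9% were higher with all libraries, and 1343 of 17688 without the lymphoid-rich ones. Lower in SATs were 7 of 9 T cell, 5 of 9 mesothelial and 4 of 7 Schwann cell markers, and without the lymphoid-rich libraries 1, 5 and 4. Of all gene models 22.1% were lower, and 20.7% without those libraries. The summed level of the Schwann cell markers went the other way, with medians of 156 FPKM in SATs and 132 FPKM in VATs. The part of the fibroblast, T cell, mesothelial and Schwann cell markers in the differences between SATs and VATs was not tested.

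**Figure D1:**
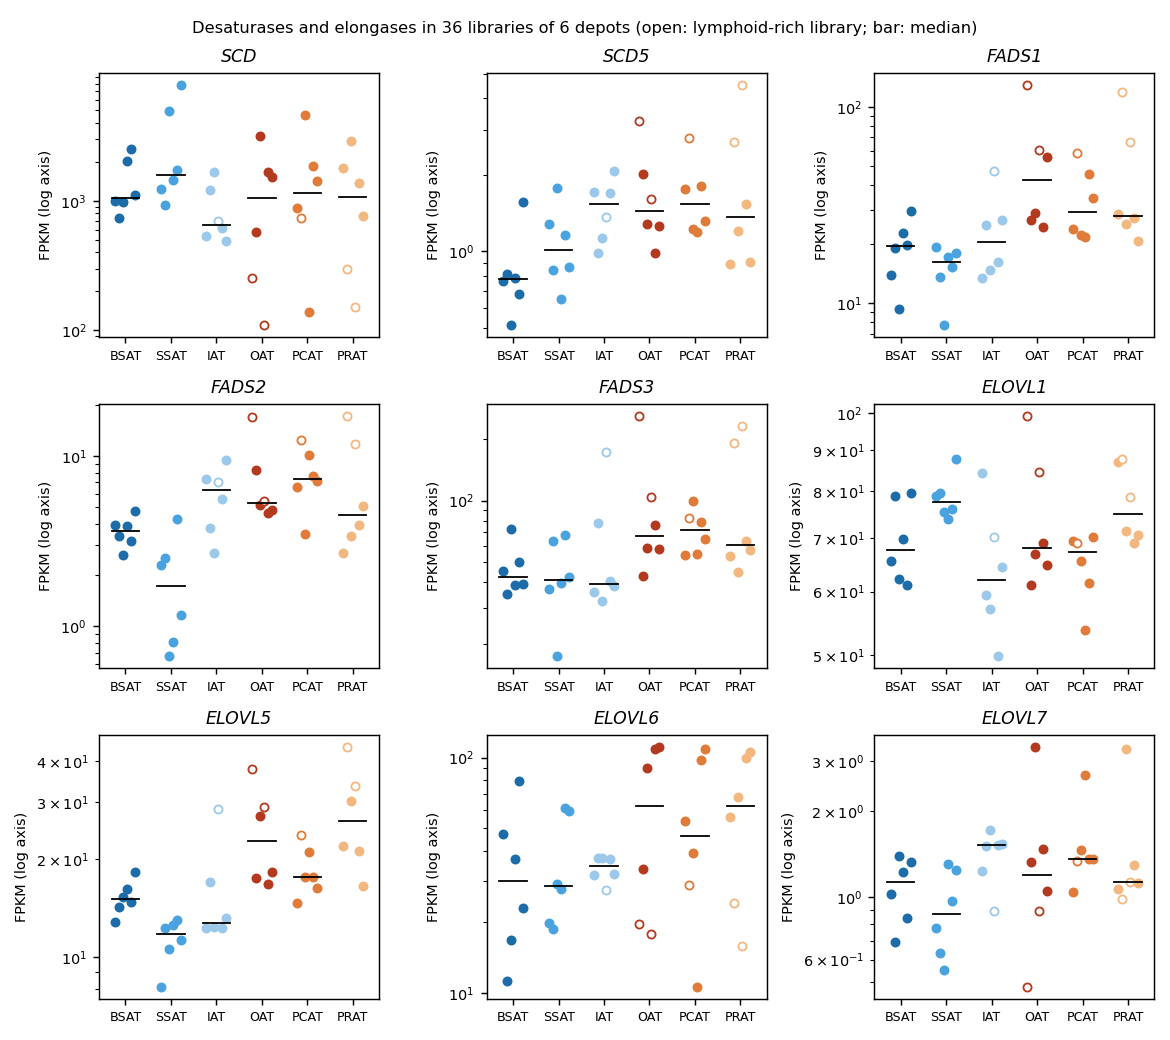
FPKM on log axes of the 9 tested desaturases and elongases in each library, by depot, with the median as a bar and lymphoid-rich libraries as open circles. The highest FADS1 and FADS3 values, 129 and 260 FPKM, belong to the open circle of OAT 1, and SSAT holds the lowest FADS2 values, from 0.67 FPKM.

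The comparison of SATs with VATs asks whether fat under the skin and fat around the organs differ in these enzymes. Expression of 5 of the 9 tested genes, FADS1, FADS2, FADS3, ELOVL5 and SCD5, fell below the VAT level in SATs, and no gene rose above it, where 22.1% of all 17688 gene models tested were lower and 7.9% higher. The median log2 fold change of the 9 genes was -0.58 and that of all gene models -0.13. All calls are from limma on log2(FPKM + 0.1) with an adjusted p under 0.05, and fold changes on this scale understate the change of low genes. Quantile normalization moved the median of all gene models by 0.12 to -0.02 and turned 1397 higher and 3909 lower calls into 1991 and 1628. Against that scaling FADS1, FADS2, FADS3 and ELOVL5 were still lower (-0.95, -0.89, -0.63 and -0.57), whereas SCD5 lost its call (adjusted p 0.0822).

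FADS1, the desaturase that completes arachidonic and eicosapentaenoic acid, spanned 7.72 to 47.1 FPKM in SATs with a median of 17.6 FPKM, and 20.7 to 129 FPKM in VATs with a median of 28.8 FPKM. Of the 18 SAT libraries, 13 lay below the lowest VAT library, although the ranges overlapped. Their means were 19.4 ± 8.90 and 45.5 ± 32.3 FPKM (SD, n = 18 libraries from 6 animals for each class). The log2 fold change was -1.09 (standard error 0.23, adjusted p 0.0008). The mean SAT level was below the mean VAT level in 6 of 6 animals.

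FADS2 catalyses the entry step that FADS1 later follows, the desaturation of linoleic and alpha-linolenic acid. It ranged from 0.67 to 9.55 FPKM in SATs (median 3.58 FPKM) and from 2.68 to 17.2 FPKM in VATs (median 6.00 FPKM). The classes overlapped, with 6 SAT libraries below all VAT libraries. The log2 fold change was -1.03 (standard error 0.29, adjusted p 0.0075), and again SATs were lower in 6 of 6 animals. Without animal 2 the change was -0.85 with an adjusted p of 0.0537, so the call rested in part on that animal.

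FADS3 introduces a double bond into sphingoid bases, as shown for the human and mouse enzyme. Its level was 17.4 to 173 FPKM in SATs (median 40.0 FPKM) and 42.8 to 260 FPKM in VATs (median 64.3 FPKM). The highest SAT library was IAT 4, a lymphoid-rich one, and 11 SAT libraries lay below all VAT libraries. The log2 fold change was -0.77 (standard error 0.24, adjusted p 0.0146), in the same direction in 6 of 6 animals. Without animal 1 it was -0.68 with an adjusted p of 0.0570.

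ELOVL5, the elongase of polyunsaturated chains between the FADS2 and FADS1 steps, had the smallest adjusted p of the 9 genes. It ranged from 8.11 to 28.5 FPKM in SATs (median 12.9 FPKM) and from 14.6 to 44.5 FPKM in VATs (median 21.1 FPKM). Of the 18 SAT libraries, 15 were below the median of all 36 libraries, against 3 VAT libraries. This gave a log2 fold change of -0.71 (standard error 0.14, adjusted p 0.000316). SATs were lower in 6 of 6 animals, with differences between -0.28 and -1.08 on the log2 scale.

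SCD5, a second stearoyl-CoA desaturase that mice lack, was low throughout. Its range was 0.512 to 2.06 FPKM in SATs and 0.891 to 4.5 FPKM in VATs, and the classes overlapped with 8 SAT libraries below all VAT libraries. The fold change of -0.55 on the log2 scale (standard error 0.19, adjusted p 0.0265) was shared by 5 of 6 animals. The call was lost without animal 1, 2 or 4 (adjusted p 0.0508, 0.186 and 0.094) and when the animals' means were compared as pairs (adjusted p 0.0980).

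The remaining genes were not called between the classes. SCD had means of 1762 ± 1830 FPKM in SATs and 1341 ± 1209 FPKM in VATs, and its log2 difference of 0.65 had a 95% confidence interval of -0.25 to 1.55 (adjusted p 0.264). Both classes had 9 libraries below the overall median of SCD. This difference was 0.12 without animal 4, whose 3 VAT libraries held 109, 138 and 150 FPKM of SCD, the 3 lowest values of all. ELOVL6, which lengthens palmitate toward stearate, had means of 35.2 ± 17.4 FPKM in SATs and 60.6 ± 38.2 FPKM in VATs. Its log2 difference of -0.58 (interval -1.20 to 0.03, adjusted p 0.140) was in the same direction in 5 of 6 animals, and 7 VAT libraries lay above every SAT library. The adjusted p was 0.0411 with the animal as a fixed block, but 0.0807 with it as a random block and 0.208 with animal means. It was 0.0202 without animal 4, where the difference was -0.91. ELOVL7, an elongase of saturated chains, differed by -0.28 (interval -0.65 to 0.08). ELOVL1, which makes the very long chains of sphingolipids, differed by -0.03 (interval -0.18 to 0.12) and by 0.11 after quantile normalization. ELOVL1 was also the least variable of the 9, between 49.9 and 99.3 FPKM in all libraries.

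**Figure D2:**
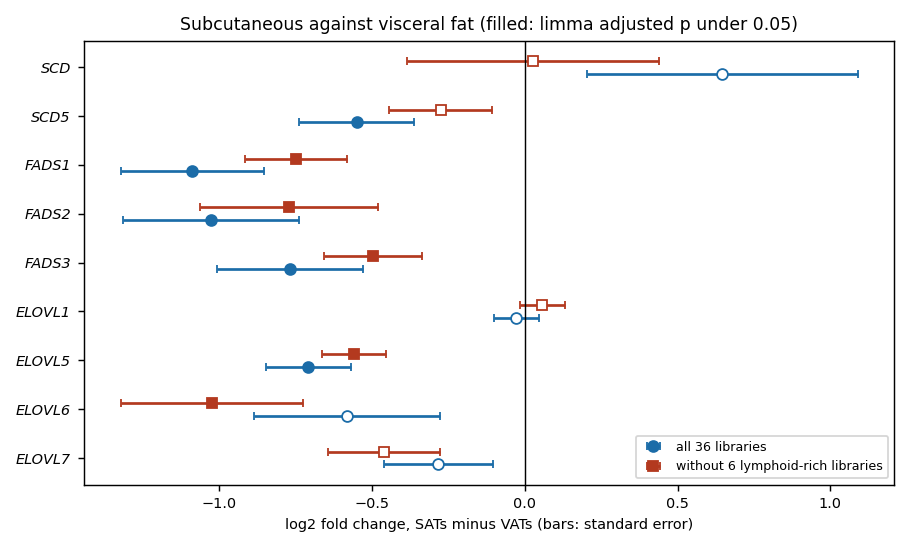
Log2 fold change of SATs minus VATs (horizontal axis) with its standard error for the 9 tested genes, from all 36 libraries (circles) and without the 6 lymphoid-rich ones (squares), filled where limma's adjusted p was under 0.05. FADS1 moved from -1.09 to -0.75, ELOVL6 from -0.58 to -1.02 and SCD from 0.65 to 0.03.

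The level of lymphoid markers moved with several of these genes. In the 6 lymphoid-rich libraries FADS1 was 47.1 to 129 FPKM, against 7.72 to 55.8 FPKM in the other 30. FADS3 was 81.9 to 260 FPKM in them and 17.4 to 99.2 FPKM in the others. For FADS1, FADS3 and ELOVL5, 5 of the 6 highest libraries were lymphoid-rich ones, and for FADS2 and SCD5 this held for 4. SCD went the other way, with 109 to 739 FPKM in the lymphoid-rich libraries and a median of 276 FPKM against 1391 FPKM in the others, and ELOVL6 had medians of 21.9 and 38.4 FPKM. The adipocyte markers summed to 432 to 3820 FPKM in the same 6 libraries. Their part in the difference between these 6 libraries and the other 30 was not tested. The adipocyte marker score was used as a covariate only in the fits of SATs against VATs and of the depots.

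**Figure D3:**
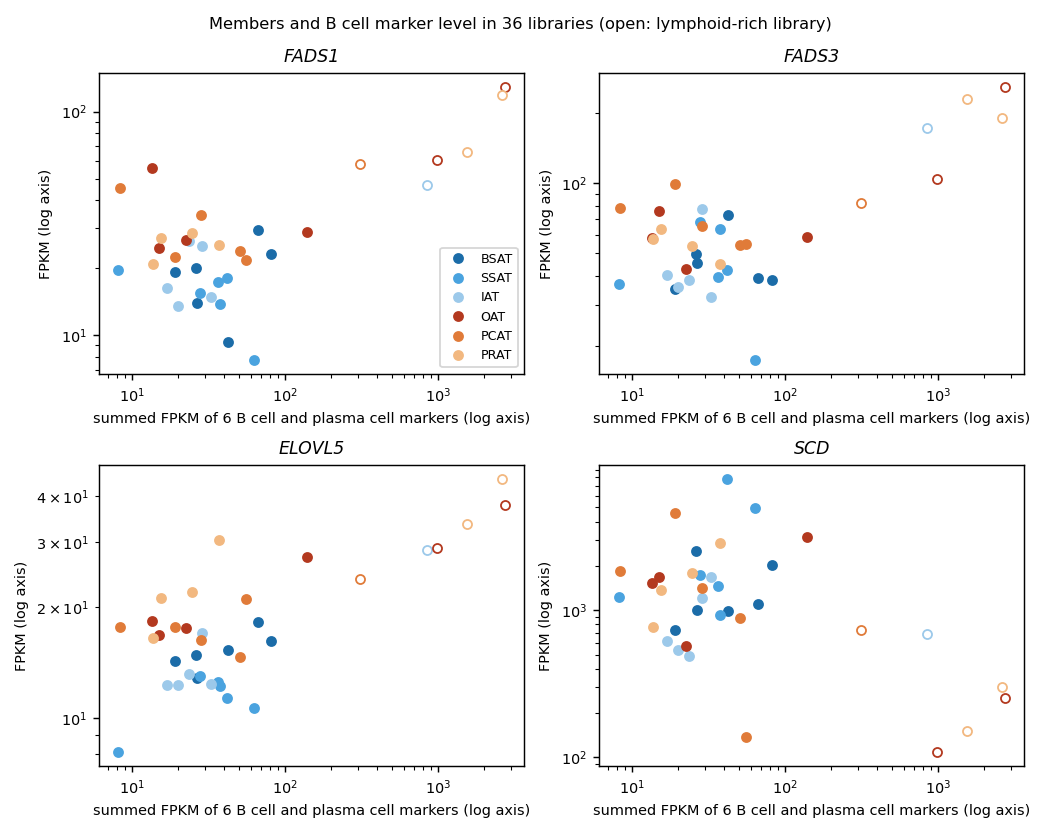
FPKM of FADS1, FADS3, ELOVL5 and SCD (vertical, log axis) against the summed FPKM of 6 B cell and plasma cell markers (horizontal, log axis), 1 point per library coloured by depot, with lymphoid-rich libraries open. The open circles, at 313 FPKM of markers and above, lie high for FADS1, FADS3 and ELOVL5 and low for SCD.

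Without the 6 lymphoid-rich libraries, 5 of 9 genes were again lower in SATs, but not the same 5, where 20.7% of all gene models were lower. ELOVL5 was lower by a log2 fold change of -0.56 (adjusted p 0.000321), FADS1 by -0.75 (adjusted p 0.00149), FADS2 by -0.77 (adjusted p 0.0473) and FADS3 by -0.50 (adjusted p 0.0198). These 4 thus kept their calls at smaller sizes, and the change of FADS3 was over 1.5 times smaller. SCD5 was no longer called (-0.28, adjusted p 0.231). ELOVL6 was called instead, at -1.02 with an adjusted p of 0.0112. In the same 30 libraries 7 of 13 adipocyte markers were lower in SATs (median -0.63), against 1 of 13 (median 0.08) in all 36, and their part in these calls was not tested. With the B cell marker score as a covariate, FADS3 missed the threshold (-0.44, adjusted p 0.0610).

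SSAT had more of these genes called against the other 5 depots than any other depot. FADS2, ELOVL5 and FADS1 were lower in SSAT than in the mean of the other depots, so 3 of 9 genes were lower and none higher, where 9.13% of all gene models were called, 5.23% lower and 3.9% higher. Quantile normalization moved the median of all gene models in this comparison from -0.10 to 0.01 and the calls from 690 higher and 925 lower to 1069 and 450. Under that scaling FADS2 and ELOVL5 kept their calls (-1.62 and -0.67), FADS1 was at -0.88 with an adjusted p of 0.0509, and ELOVL1 was called higher at 0.29 (adjusted p 0.0192).

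FADS2 in SSAT had 0.67 FPKM in the lowest library, a median of 1.74 FPKM and 4.25 FPKM in the highest. SSAT 3, SSAT 4 and SSAT 6 held 0.67, 0.806 and 1.16 FPKM, the 3 lowest FADS2 values of all libraries. SSAT 3 is one of 4 libraries that the study left out of its co-expression network. SSAT averaged 1.95 ± 1.37 FPKM (SD, n = 6) and the other depots 6.48 ± 3.89 FPKM (n = 30). The log2 fold change was -1.75 (standard error 0.33, adjusted p 0.00111), and SSAT was lower in 6 of 6 animals. With single libraries left out in turn it was -2.02 to -1.52 (limma adjusted p up to 0.0103).

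ELOVL5 in SSAT ran from 8.11 to 13.0 FPKM with a median of 11.8 FPKM. The mean was 11.3 ± 1.79 FPKM against 20.4 ± 8.09 FPKM in the other depots, a log2 fold change of -0.77 (standard error 0.17, adjusted p 0.0041) with the same direction in 6 of 6 animals. FADS1 in SSAT ran from 7.72 to 19.4 FPKM around a median of 16.3 FPKM, and its change was -0.99 (standard error 0.32, adjusted p 0.0435). That call lay close to the threshold and was lost without any of the 6 animals (adjusted p 0.0501 to 0.138), and with the B cell marker score as a covariate (-0.61, adjusted p 0.0975).

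SCD was highest in SSAT, with 935 FPKM in the lowest library, a median of 1594 FPKM and 7795 FPKM in the highest. SSAT 3 and SSAT 6, at 4972 and 7795 FPKM, were the top values of all libraries. The mean of 3021 ± 2766 FPKM against 1258 ± 1010 FPKM gave a log2 difference of 1.30 with an interval of 0.09 to 2.51. SSAT was higher in 6 of 6 animals, and the difference did not pass over all genes (p 0.0354, adjusted p 0.160). With the adipocyte marker score as a covariate it was 1.45 with an adjusted p of 0.00602, whereas it was 0.88 with an adjusted p of 0.233 without the lymphoid-rich libraries. Of the 3 libraries with least FADS2, SSAT 3 and SSAT 6 were also those with most SCD, and SSAT 3 is among those left out of the study's network.

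The other genes were not called in SSAT. ELOVL7 had a difference of -0.51 (adjusted p 0.171) and ELOVL1 of 0.18 (adjusted p 0.196). Without the lymphoid-rich libraries, none of which is an SSAT library, both passed, ELOVL7 at -0.65 (adjusted p 0.0446) and ELOVL1 at 0.23 (adjusted p 0.0448), where 9.62% of all gene models were lower and 5.9% higher. FADS2, ELOVL5 and FADS1 kept their calls there (-1.53, -0.62 and -0.70). Beside these values, 7 of 9 fibroblast and progenitor markers were higher in SSAT, and the T cell markers summed to 12.0 to 41.1 FPKM in SSAT. Of all gene models 3.9% were higher in SSAT with all libraries, and 5.9% without the lymphoid-rich ones. The part of these markers in the result was not tested.

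**Figure D4:**
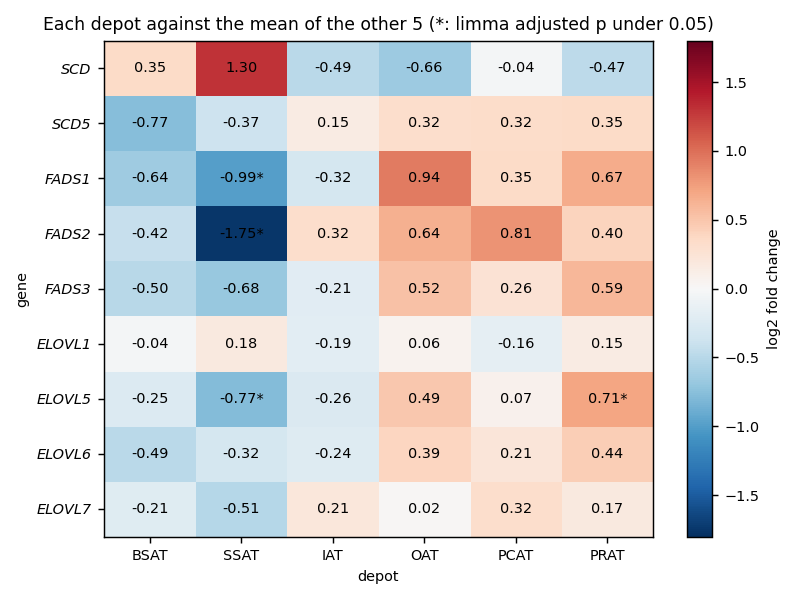
Log2 fold change of each depot (columns) against the mean of the other 5 for the 9 tested genes (rows), on a colour scale from blue for lower to red for higher, with an asterisk where limma's adjusted p was under 0.05. The asterisks are at FADS1 (-0.99), FADS2 (-1.75) and ELOVL5 (-0.77) in SSAT and at ELOVL5 (0.71) in PRAT.

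In PRAT, ELOVL5 alone was higher than in the other depots, 1 of 9 genes where 7.6% of all gene models were higher and 3.29% lower. The 6 PRAT libraries held 16.5 FPKM at the lowest, 26.2 FPKM at the median and 44.5 FPKM at the highest. The mean was 28.0 ± 10.2 FPKM against 17.1 ± 6.46 FPKM, a log2 fold change of 0.71 (standard error 0.17, adjusted p 0.00674), and PRAT was higher in 6 of 6 animals. The call was lost without animal 2 (adjusted p 0.0645) or animal 3 (adjusted p 0.052). It was 0.55 without the lymphoid-rich libraries (adjusted p 0.00722), where 9.64% of gene models were higher, and 0.60 after quantile normalization (adjusted p 0.0106), which turned 1345 higher and 582 lower calls of all gene models into 475 and 645. FADS1 and FADS3 had differences of 0.67 and 0.59 in PRAT that were not called, and 0.24 and 0.12 without the lymphoid-rich libraries. BSAT, IAT, OAT and PCAT each had 0 genes called by limma against the other depots, and 1, 1, 2 and 1 of 9 genes had an unadjusted p under 0.05. Of all gene models, 2.01%, 0.181%, 0.78% and 4.26% were called there. Among these uncalled differences were FADS1 at 0.94 in OAT (adjusted p 0.139, and 0.0419 without animal 2), FADS2 at 0.81 in PCAT (adjusted p 0.203), which was higher in 6 of 6 animals, and SCD5 at -0.77 in BSAT (adjusted p 0.0923, and 0.0337 with the adipocyte marker score as a covariate).

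In the 15 pairs of depots, 11 of 135 tests of these genes passed, against 5.48% of all tests. ELOVL5 accounted for 5 of them, FADS2 for 3, FADS1 for 2 and SCD5 for 1, and each of the 11 was a subcutaneous depot below a visceral one. This was also the more common direction over all gene models in pairs across the classes, except in IAT against OAT (96 higher, 72 lower). Pairs within a class held from 1 higher and 0 lower calls (BSAT against IAT) to 277 and 267 (PCAT against PRAT). The direction across classes depended on the scaling. After quantile normalization lower calls were the more common only in BSAT against PCAT, BSAT against PRAT and IAT against PCAT. In SSAT against OAT, PCAT and PRAT, 1057, 941 and 1606 gene models were then higher and 536, 598 and 987 lower. The pair calls of the 9 genes under that scaling are not given here. In SSAT against OAT, where 8.97% of gene models were lower, FADS2, FADS1 and ELOVL5 were lower by log2 fold changes of -1.99, -1.61 and -1.05, and the 6 SSAT libraries lay below the 6 OAT libraries for each. In SSAT against PRAT, where 14.2% of gene models were lower, the same genes changed by -1.79, -1.39 and -1.24, and FADS2 overlapped. The FADS1 calls were lost without animal 1 against OAT (adjusted p 0.0567) and without animal 2 (adjusted p 0.0944) or the lymphoid-rich libraries (adjusted p 0.0540) against PRAT. In SSAT against PCAT, where 4.94% were lower, FADS2 changed by -2.13 and ELOVL5 by -0.71, the latter lost without any of the 6 animals (adjusted p 0.0527 to 0.129). ELOVL5 was also lower in BSAT (-0.80, adjusted p 0.0138) and IAT (-0.81, adjusted p 0.0226) than in PRAT, where 9.89% and 4.99% of gene models were lower. Leaving out animals 2 or 3 lost the former call (adjusted p 0.119 and 0.0617), and leaving out any animal but 4 lost the latter. SCD5 in BSAT against PRAT (-0.93, adjusted p 0.0485) did not keep its call with the animal as a block (adjusted p 0.0520) or without the lymphoid-rich libraries (-0.41, adjusted p 0.30). The 6 SSAT libraries also lay below the 6 PCAT libraries for FADS1 and above them for ELOVL1, without a call (adjusted p 0.0879 and 0.135). The share of all gene models whose libraries separate in this way is not given for any pair, so how unusual these separations are is unknown.

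Ordered by mean log2 level, ELOVL5 rose from SSAT over IAT, BSAT, PCAT and OAT to PRAT, and FADS2 from SSAT over BSAT, IAT, PRAT and OAT to PCAT. FADS1 and FADS3 both had SSAT, BSAT and IAT below the visceral depots, with OAT highest for FADS1 and PRAT for FADS3. SCD had the order OAT, IAT, PRAT, PCAT, BSAT and SSAT. Neighbours in these orders were not told apart, since none of the 45 neighbouring steps of the 9 genes passed in limma (smallest adjusted p 0.291) and 1 had an unadjusted p under 0.05.

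Over all 36 libraries, the lymphoid-rich ones included, SCD and ELOVL6 varied more between animals than between depots. The animal accounted for 40.4% of the variation of SCD on the log2 scale and the depot for 16.6%. For ELOVL6 the shares were 48.7% and 9.99%, while the medians over all gene models tested were 20.6% for the animal and 23.2% for the depot. ELOVL5 and FADS2 were the reverse, with 58.3% and 52.3% between depots and 12.4% and 14.4% between animals. In animals 5 and 6 ELOVL6 lay between 97.3 and 111 FPKM in all 6 VAT libraries, a range that no library of another animal reached. In animal 4 the VAT libraries held 10.6 to 17.8 FPKM of ELOVL6. OAT 4, PRAT 4 and IAT 4 are lymphoid-rich, and the adipocyte markers summed to 747, 432 and 897 FPKM in OAT 4, PRAT 4 and PCAT 4. The part of this in the animal shares was not tested, and no shares without these libraries are given. PCAT 4, which is not lymphoid-rich, had the lowest ELOVL6 value of all libraries and 138 FPKM of SCD. Animal 3 had the highest mean SCD, 3039 FPKM, with 2872 to 4972 FPKM in SSAT, OAT, PCAT and PRAT but 984 FPKM in BSAT and 1678 FPKM in IAT.

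**Figure D5:**
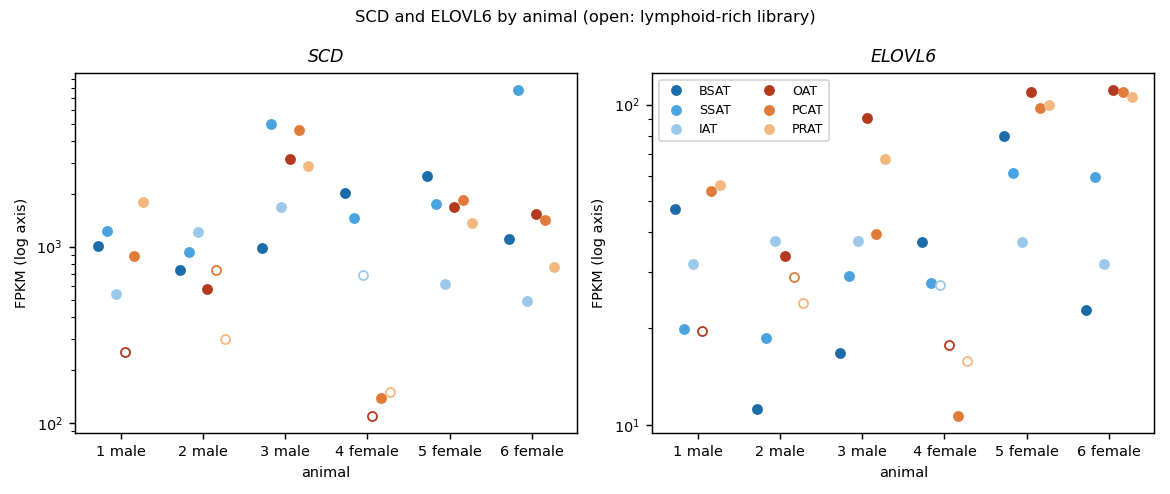
FPKM of SCD and ELOVL6 (vertical, log axes) in the 6 depots of each animal (horizontal), coloured by depot, with lymphoid-rich libraries open and the sex of the animal beside its number. Animals 5 and 6 hold the highest ELOVL6 values, up to 111 FPKM, and the visceral libraries of animal 4 hold the lowest SCD values, from 109 FPKM.

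Between Nili-Ravi females and Murrah males, limma on the means of each animal called 0 of the 9 genes and 0% of 17688 gene models, and 0 of the 9 had an unadjusted p under 0.05, as had 478 of all gene models. ELOVL6 had a female minus male difference of 0.52 with an interval of -0.70 to 1.73, and SCD one of -0.26 with an interval of -1.96 to 1.43. The difference between SATs and VATs was also compared between the sexes, and limma called 0 of the 9 genes and 0% of all gene models. An unadjusted p under 0.05 was seen for 2 of the 9 and 616 of all. For FADS1, SATs lay 1.30 to 1.60 below VATs on the log2 scale in the males and 0.50 to 0.86 below in the females, and for ELOVL5 the means were -0.97 in males and -0.45 in females. Neither passed over all genes (unadjusted p 0.00923 and 0.0209, adjusted p 0.978 for both), and without the lymphoid-rich libraries the differences between the sexes fell from 0.77 to 0.36 for FADS1 and from 0.51 to 0.21 for ELOVL5.

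Desaturases take electrons from cytochrome b5, which is reduced by a cytochrome b5 reductase. Of 5 tested genes of this supply, 1 was higher and 2 lower in SATs, with all libraries and without the lymphoid-rich ones, beside 7.9% higher and 22.1% lower among all gene models. Calls of this and the following lists are not given under quantile normalization. That scaling turned 3909 lower calls of all gene models in SATs into 1628, so small changes in these lists may depend on it. CYB5R3, the main reductase, averaged 470 ± 104 FPKM in SATs and 323 ± 67.6 FPKM in VATs, a log2 fold change of 0.54 (adjusted p 0.000308), higher in 6 of 6 animals. It was 582 ± 71.6 FPKM in SSAT against 359.5 ± 79.4 FPKM in the other depots (0.72, adjusted p 0.000338), where FADS2 and FADS1 were lowest. CYB5R4, another reductase, and CYB5B, the cytochrome b5 of mitochondria, fell by 0.40 and 0.33 in SATs.

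Among 5 tested partners of the elongation cycle, HACD3, a dehydratase of the chain, was lower in SATs at -0.24 (adjusted p 0.00567). The other 4 were not called, so the share lower was near the 22.1% of all gene models. Without the lymphoid-rich libraries 2 of 5 were lower, beside 20.7% of all gene models. Of 5 further desaturases and elongases outside the 10, 2 were lower in SATs, beside 22.1% of all gene models. ELOVL4, which makes the longest polyunsaturated chains, averaged 3.11 ± 4.52 FPKM in SATs and 12.3 ± 18.7 FPKM in VATs, a change of -1.50 (adjusted p 0.0202), which was -0.86 and not called without the lymphoid-rich libraries (adjusted p 0.0840). ELOVL2, which elongates the products of ELOVL5, changed by -0.60 at levels of 0.208 and 0.373 FPKM. In the supply of palmitate, 3 of 10 genes were lower in SATs and none higher, a share near the 22.1% of all gene models. Among those called, MID1IP1, an activator of acetyl-CoA carboxylase, and SLC25A1, the citrate carrier of mitochondria, changed most (-0.31 and -0.30). The 10 genes had a median of -0.19, and without the lymphoid-rich libraries 4 were lower with a median of -0.43, beside 20.7% of all gene models lower. Of those 4, IDH1 (-0.93) and ACSS2 (-0.80) changed most, and neither was called with all libraries.

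Acyl-CoA synthetases hand activated chains to these enzymes, and 3 of 9 were lower in SATs and none higher, beside 22.1% lower among all gene models, led by ACSS1, the acetyl-CoA synthetase of mitochondria (-0.67), and ACSL3, a long-chain synthetase of lipid droplets (-0.48). The median of the 9 was -0.19 and turned to 0.14 without the lymphoid-rich libraries. There ACSL1 (-1.17), ACSS1 (-0.76) and ACSL3 (-0.45) were called lower and none of the 9 higher, ACSL1 only in these libraries. Of 8 tested transferases that use the products, 2 were lower, a share near that of all gene models. These were MBOAT2, a lysophospholipid acyltransferase, at -1.07 (adjusted p 0.000591) and DGAT1, which completes triglycerides, at -0.38. Without the lymphoid-rich libraries 4 of 8 were lower, beside 20.7% of all gene models, and the median moved from -0.39 to -0.79.

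SREBP factors are known to drive both the desaturases and the genes of sterol synthesis. Of 12 tested sterol genes, 8 were lower in SATs and none higher, with a median of -0.37 against -0.13 for all gene models. Of all gene models 22.1% were lower and 7.9% higher. CYP51A1, a demethylase of sterol synthesis, averaged 7.55 ± 3.38 FPKM in SATs and 11.9 ± 3.40 FPKM in VATs (-0.71, adjusted p 0.00103). In SSAT 5 of the 12 were lower, CYP51A1 among them (-0.71), where 5.23% of all gene models were lower. In PRAT 2 were higher, SC5D and IDI1, at 1.04 and 0.47, where 7.6% of all gene models were higher. Without the lymphoid-rich libraries 7 of 12 were lower in SATs, beside 20.7% of all gene models. Of 15 regulators, SREBF2 and MLX were lower in SATs (-0.42 and -0.39), a share under the 22.1% of all gene models. RXRA was higher (0.44), while SREBF1, the form linked to fatty acid synthesis, was not called at -0.15 (adjusted p 0.553). Without the lymphoid-rich libraries 5 of the 15 were lower and none higher, where 20.7% of all gene models were lower. RXRA (0.19, adjusted p 0.136) and SREBF2 (-0.23, adjusted p 0.106) lost their calls there, MLX kept its own (-0.35), and SREBF1 was called lower (-0.47, adjusted p 0.0311). In SSAT, INSIG1 was lower (-0.81, adjusted p 0.0494) and INSIG2 higher (0.46, adjusted p 0.0274), both of which hold SREBP in the endoplasmic reticulum.

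Genes whose levels closely followed those of a member over the 36 libraries are given as a description, since the libraries share animals and lymphoid content. ELOVL5 was most like MED13, GLYR1 and ERO1B (Pearson r 0.94, 0.91 and 0.91), and FADS1 most like KYNU, FDPS and IDH2 (0.90, 0.88 and 0.88). FADS3 came close to PLEKHF2 and DGKE (0.88 and 0.86), and FADS2 to FHIT, DNMT3L and BTD (0.83, 0.81 and 0.79). ELOVL6 lay closest to PHYH, SUOX and CNST (each 0.88), and SCD to ETNPPL, ACER3 and HSD17B12 (0.84, 0.84 and 0.83). HSD17B12 is the reductase of the elongation cycle, and FDPS belongs to the sterol genes described above. ELOVL1 and ELOVL7 had their closest genes in BOLA2 and AURKC (0.82 and 0.73).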

How the data were processed

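RNA of 36 adipose samples was sequenced. Reads were filtered with Fastp, aligned with HISAT2 2.2.1 to the authors' own river buffalo genome and quantified with StringTie 2.1.4. The deposited table holds the resulting FPKM values made by the authors; columns summed to 796645 to 911384 FPKM. No per-gene read counts were used, so the depth behind each value is unknown and no counting interval is given. The labels name a TruSeq RNA kit, whereas the study's methods describe depletion of ribosomal RNA.

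For testing, log2(FPKM + 0.1) was fitted for the 17688 gene models that averaged over 0.1 FPKM, with limma 3.58.1 in R 4.3.3 (empirical Bayes following the mean). The p-values were adjusted by Benjamini and Hochberg over all of them, with a threshold of 0.05, also where members or lists are counted. One fit compared SATs with VATs, another compared the 6 depots, and animal means compared females with males. The main fits held no animal term, and the study's methods describe none. Depots of 1 animal thus counted as separate libraries. In the fit of SATs against VATs, differences between depots of a class were also part of the spread. Same-numbered libraries are from 1 animal by the labels, and after removal of depot means they correlated at 0.217 on average, against -0.0387 between animals.

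Members, lists, the lymphoid-rich libraries and tests were chosen with earlier results of these data known. All members are named, and of each list the 2 largest rises and falls past the threshold. Some genes that this rule names are not reported here. Regulators outside that rule (SREBF1) were added after their values were seen. Alternatives covered pseudocount, filter, scaling, animal block, marker covariates and left-out libraries. The limma fits were tested on simulated data. RefSeq (assembly NDDB_SH_1) served only for neighbours, and promoter and protein sequences were not used here. Figures were drawn with matplotlib 3.10.9 in Python 3.11.15.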

Additional observations from a re-analysis of the deposited data

Results flagged for a closer look

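Within depots, 54 groups of 6 libraries were examined for a library far from the rest, and 2 had one. Chance gives about 1 in 20, so 2 of 54 is no more than chance gives, and both are only described. ELOVL7 in PCAT 4 was 2.69 FPKM, against 1.04 to 1.47 FPKM in the other PCAT libraries. ELOVL7 in PRAT 3 was 3.30 FPKM, against 0.98 to 1.30 FPKM in the other PRAT libraries. OAT 3, from the same animal as PRAT 3, held 3.38 FPKM, the highest ELOVL7 value of all.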

How the results depend on the processing

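Of the alternatives run, none turned the direction of a called result. The 4 libraries that the study left out of its network are BSAT 1, BSAT 2, SSAT 3 and IAT 1. Without these 4 and the 6 lymphoid-rich libraries, the number of genes lower in SATs was 3 in place of 5. That alternative was chosen after seeing the data. Calls in the 15 pairs were 21 in place of 11 with the adipocyte marker score as a covariate and 6 without the 4 network libraries. In both cases the cause was not tested. With libraries or animals left out in turn, 3 to 5 genes were lower in SATs, 2 to 3 lower in SSAT, 0 to 1 higher in PRAT, and 7 to 13 pair calls passed. FADS3 lost its call between SATs and VATs without the 4 network libraries (adjusted p 0.0789), and FADS1 in SSAT did so without them (adjusted p 0.163) or without the filter (adjusted p 0.0523). Calls lost without single libraries were SCD5 in BSAT against PRAT (24 libraries, adjusted p up to 0.153), FADS1 in SSAT against the other depots (14, up to 0.167), ELOVL5 in SSAT against PCAT (7, up to 0.102) and in IAT against PRAT (4, up to 0.0776), and, without PRAT 2, ELOVL5 in BSAT and FADS1 in SSAT against PRAT (0.0533 and 0.0628). A replicate block for the animal gave 13 pair calls in place of 11 as a fixed term and 16 as a random one. Among the results named above it changed only the calls of ELOVL6 and SCD5 given there, as a fixed term or through animal means. With FPKM alone, the precision of low genes such as SCD5 and ELOVL7 cannot be given.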
